A study of Mus musculus with 9 samples.

Results

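The genes described here are those by which vertebrate cells keep a record of their place in the body. They were taken from the count table by name: every row called Hoxa, Hoxb, Hoxc or Hoxd with a number, except Hoxc13, and the rows Pitx1, Tbx4, Tbx5, Tbx15 and En1. This gave 43 of the 54456 genes in the table, of which 38 were Hox genes (11 Hoxa, 10 Hoxb, 8 Hoxc and 9 Hoxd) and 5 were other position genes. Of the 43, 28 had enough counts to be tested, 7 had counts too low for a test and 8 had no count in any library.

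RNA came from mouse skin lesions, AA-like by the labels, of an alopecia study. The 3 groups had 3 libraries each: lesions that received microneedles, which are arrays of tiny needles that deliver substances into skin, with IL-2 and CCL22 (the loaded device), lesions that received microneedles without these proteins (the empty device), and untreated lesions. IL-2 is a growth factor for T cells, and CCL22 is a chemokine that draws in cells with the receptor CCR4. All 3 groups share the lesion, so none of them is healthy skin. The labels name the tissue as skin and give no body site, strain, age or time. Whether the replicates are different animals is not stated, so the p-values reflect the scatter among the libraries sequenced, and that scatter may be technical. Total counts ran from 85962714 to 96740589 per library. All 15 genes of an epidermal keratinocyte list (Krt5, Krt14, Krt1 and Krt10 among them) had counts, with summed levels of 36900 to 60100 CPM per library. Levels are given as CPM, a gene's count relative to a library size scaled with TMM factors, which correct for differences in composition between libraries.

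Hox genes encode homeodomain transcription factors and lie in 4 clusters, each read in the same direction. Genes with low paralogue numbers are used near the head, and genes with high numbers near the tail and in the ends of the limbs. Fibroblasts of adult skin keep part of this pattern, so that skin of the trunk, limb, genital region and face can be told apart by the Hox genes they transcribe. Pitx1 and Tbx4 mark the hindlimb, Tbx5 the forelimb, Tbx15 the dorsal trunk, and En1 the ventral side of the limb. The comparison asks, by cluster and by paralogue number, whether the 3 groups share the same set, order and levels of these genes.

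The way the counts were made limits which Hox genes can be read. Rows of the table cover whole gene spans, introns included, and the gene clusters are dense with overlapping spans. Among protein-coding genes with no base free of another row on the same strand, 347 of 351 (98.9%) had 0 counts in all libraries. Of those with no base free of a row on the opposite strand, and none shared on their own strand, 5 of 575 (0.87%) had 0 counts, against 415 of 11777 (3.52%) of those that overlapped nothing. Reads were therefore counted by strand, and reads within 2 rows of one strand were not counted. The 8 Hox genes at 0 all lie wholly within another row: Hoxa3, Hoxa4, Hoxa5 and Hoxa6 within the predicted gene Gm28308, Hoxc6, Hoxc8 and Hoxc9 within Hoxc5, and Hoxd4 within Hoxd3. Their zeros say nothing about transcription in the skin. A further set kept counts from part of the span: Hoxa2 from 39.0%, Hoxc5 from 39.1%, Hoxc10 from 12.7%, Hoxd3 from 1.4%, Hoxd10 from 28.6% and Hoxd11 from 52.1%. The Hoxc5 row runs from within Hoxc10 to just before Hoxc4, so its count comes from the stretches outside these other rows.

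**Figure D1:**
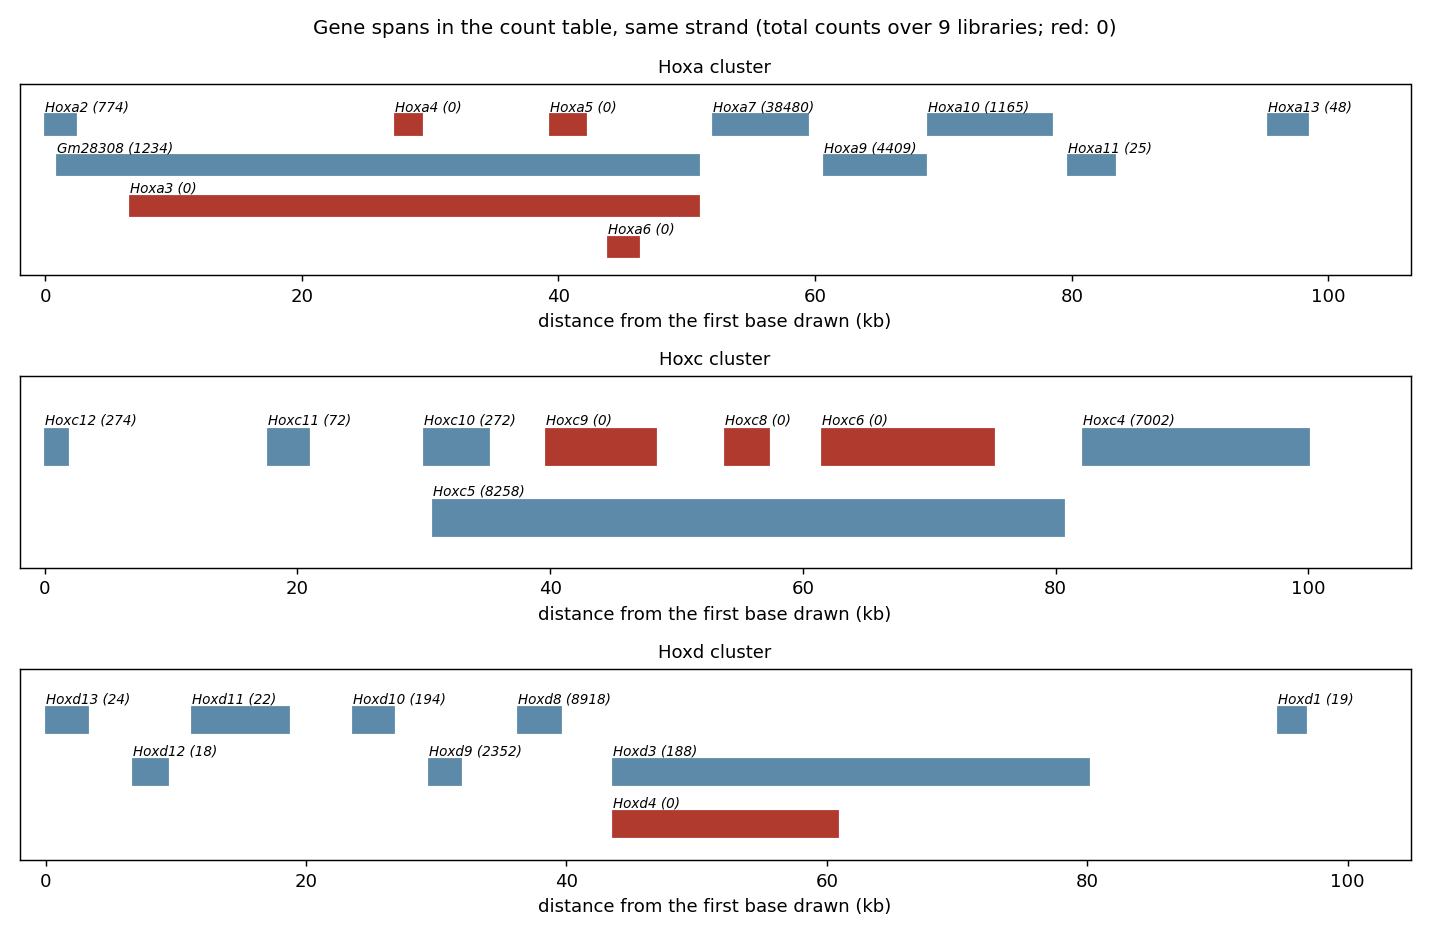
Spans of Hoxa, Hoxc and Hoxd rows and of Gm28308 on their own strand, with distance in kb on the x axis and the total count over 9 libraries in brackets. The 8 rows drawn in red have 0 counts, and each lies within a longer row, such as Hoxc6, Hoxc8 and Hoxc9 within Hoxc5.

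The 3 groups held nearly the same set of position genes. With at least 10 counts in every library of a group as the mark of detection, 28 members were detected with the loaded device, 28 with the empty device and 27 in untreated lesions. The sets differed by Hoxb13, a gene of the tail end of the body. Hoxb13 had 15, 15 and 20 counts with loaded microneedles, 18, 28 and 23 with the empty device and 8, 17 and 16 in untreated lesions. One untreated library, replicate 1, lay under the minimum, and the groups overlapped. The highest paralogue detected was 10 in Hoxa, 12 in Hoxc and 10 in Hoxd in all 3 groups. In Hoxb it was 13 with the loaded device, 13 with the empty device and 9 in untreated lesions.

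The genes at the posterior end of each cluster were near the limit of detection. Hoxa10 was the last Hoxa gene detected, with 1.23, 1.47 and 1.31 CPM with the loaded device, 1.69, 1.72 and 1.61 CPM with the empty device and 1.34, 1.21 and 1.22 CPM in untreated lesions. Hoxa11, used in the middle segment of the limb, had 7, 0 and 3 counts with loaded microneedles, 1, 3 and 4 with the empty device and 2, 2 and 3 in untreated lesions. Hoxa13, a gene of hands, feet and genital tubercle, had 2, 7 and 6 counts with loaded microneedles, 11, 1 and 9 with the empty device and 3, 6 and 3 in untreated lesions. Both genes overlapped between all groups, and a count of 0 in a library allows up to 3. In Hoxd, Hoxd10 had 14 to 34 counts per library, whereas Hoxd11, Hoxd12 and Hoxd13, which pattern the outer limb, had 0 to 7. Hoxd1, at the anterior end, had 0 to 6 counts, and Hoxc11 had 3 to 12. No order between the groups can be read from counts this low.

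Hoxc12, the last Hoxc gene detected, stood apart from these genes. It had 40, 38 and 50 counts with loaded microneedles, 28, 34 and 23 with the empty device and 25, 17 and 19 in untreated lesions. The loaded libraries all lay above both other groups, while the empty and untreated groups overlapped. The log2 fold change of Hoxc12 was 0.95 (SE 0.264, edgeR adjusted p = 4.18e-03) for loaded over untreated and 0.65 (SE 0.250, edgeR adjusted p = 0.0376) for loaded over empty. The second call did not hold when loaded replicate 1, loaded replicate 3, empty replicate 1 or empty replicate 3 was left out, with values of 0.49 to 0.79 over the left-out libraries, nor with upper quartile scaling, without a filter on low counts or in the DESeq2 Wald test. Hoxc12 lies beside Hoxc13, a gene of the hair shaft that was left out of the set.

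**Figure D2:**
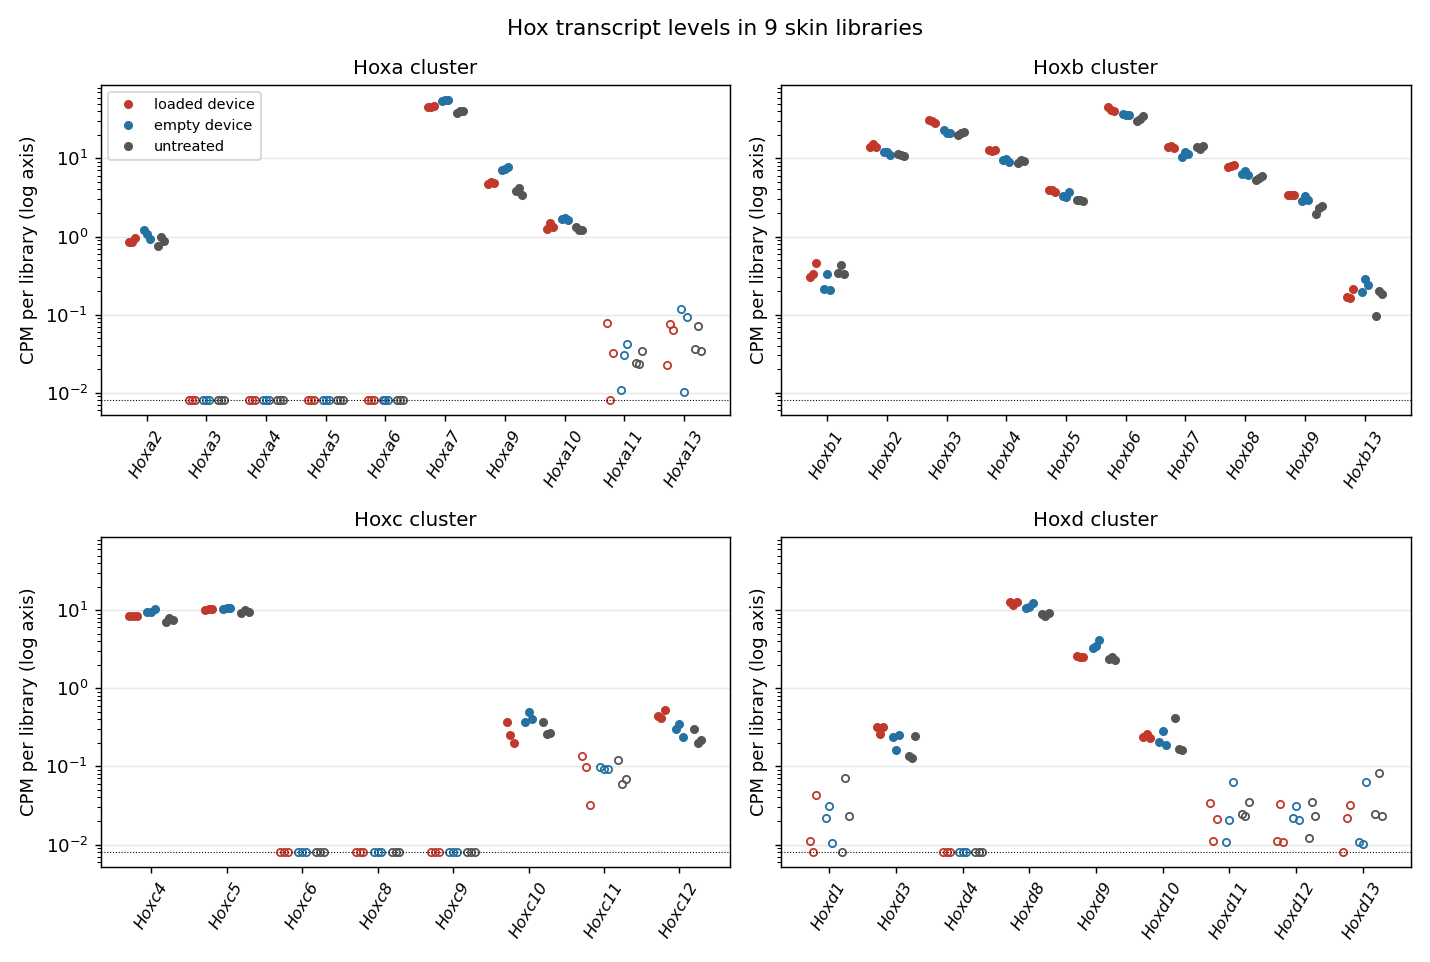
CPM per library (log axis) of Hox genes by cluster, in paralogue order, with 3 points each for the loaded device, the empty device and untreated lesions. Open points are genes not tested, and points on the dotted line are libraries with 0 counts. The groups lie close together at most genes, Hoxa9 stands highest with the empty device, and the same 8 genes are at 0 in every library.

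The order of the Hox genes by level was also close between groups. Over the 17 tested Hox genes whose whole span is free of other rows on their strand, levels were compared as CPM per kb of span. Hoxa7 ranked first in every group, at 6.20 CPM per kb with the loaded device, 7.49 with the empty device and 5.41 in untreated lesions. Hoxb13 ranked last, at 0.0581, 0.0767 and 0.0514 CPM per kb in the same order of groups. Hoxb6, Hoxb7, Hoxb2, Hoxb4 and Hoxd8 filled ranks 2 to 6 in each group. The spans include introns, so these ranks compare the groups and not the abundance of the genes. Hoxb3, with a span of 24.6 kb, averaged 29.8 CPM with the loaded device and ranked 9 there. Hoxb8 averaged 8.09 CPM in that group and ranked 7. Spearman's rho over these 17 genes was 0.979 between the loaded and untreated groups, 0.958 between the empty and untreated groups and 0.971 between the loaded and empty groups. It describes gene means that share length and base composition, and genes are not replicates. The levels ran from 0.0514 to 7.49 CPM per kb, a range far wider than any group difference among these genes. A rho near 1 follows from that range and does not measure how alike the groups are. No gene moved by more than 3 ranks.

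Within this shared set the levels differed between groups by small amounts for most genes. For loaded over untreated, 13 of the 28 tested members were higher at an edgeR adjusted p under 0.05, against 19.0% of all 26081 tested genes, and 2 were lower, against 23.3%. For empty over untreated, 13 were higher, against 20.2% of all tested genes, and 1 was lower, against 28.1%. For loaded over empty, 7 were higher, against 22.9% of all tested genes, and 8 were lower, against 18.5%. In either direction the calls covered 42.3%, 48.3% and 41.4% of all tested genes in these comparisons. The counts of calls by cluster given below are read against the same shares of all tested genes higher or lower. The median log2 fold change of the tested members was 0.13, 0.28 and -0.01, beside -0.014, -0.016 and 0.015 over all tested genes. The first 2 comparisons share the untreated libraries, so they are not independent of each other. The split depends on the scale: scaled to the dermal fibroblast list, which moves the median of all tested genes to 0.438, 0.144 and 0.308, 20 members were higher and 1 lower, 20 higher and 1 lower, and 13 higher and 3 lower in the same comparisons. The 3 libraries of a group lay all above or all below those of the other for 13 and 3 members for loaded over untreated, against 24.6% and 28.1% of all tested genes. The counts were 15 and 2 for empty over untreated, against 23.5% and 31.1%, and 9 and 8 for loaded over empty, against 28.1% and 22.7%. Of the 28, 20 were called in at least 1 comparison and 8 in none.

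Few of these differences were large. Against a minimum change of 1.5-fold, edgeR called Pitx1 in loaded over untreated (adjusted p = 6.45e-06) and in loaded over empty (adjusted p = 3.49e-12), and Hoxa9 in empty over untreated (adjusted p = 2.44e-04). Over all tested genes, 1.80% passed that minimum for loaded over untreated, 3.48% for empty over untreated and 2.66% for loaded over empty. In bulk skin a lower level from fewer cells and one from less RNA per cell cannot be told apart, and the same holds for higher levels.

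**Figure D3:**
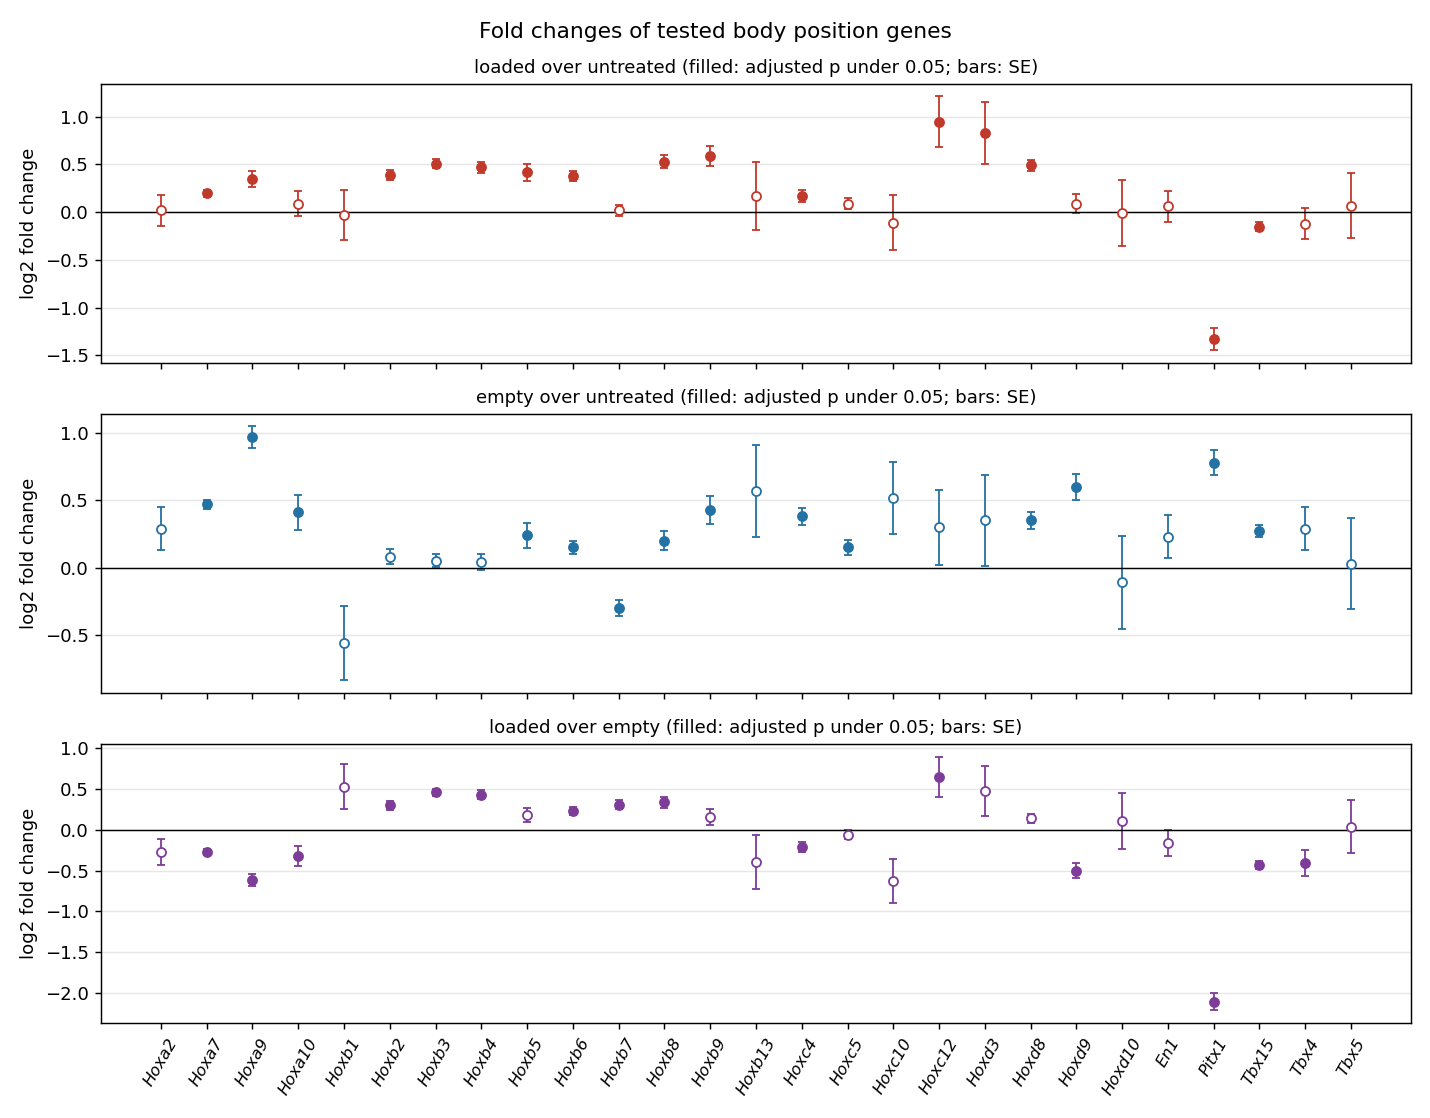
Log2 fold change (y axis) of tested members for loaded over untreated, empty over untreated and loaded over empty, with bars of 1 SE and filled points for an edgeR adjusted p under 0.05. Hoxb2 to Hoxb6 and Hoxb8 are raised with the loaded device, Hoxa7, Hoxa9 and Hoxd9 are raised most with the empty device (for Hoxa7 not with the fibroblast scaling), and Pitx1 has opposite signs with the 2 devices.

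The Hoxb cluster on chromosome 11, in which all genes from Hoxb1 to Hoxb13 had at least 3 counts in every library, had its highest summed level with the loaded device. Of its 10 tested genes, 7 were higher for loaded over untreated and none was lower, with a median log2 fold change of 0.41. For loaded over empty, 6 were higher and none was lower, with a median of 0.31. For empty over untreated, 4 were higher and 1 was lower, with a median of 0.12. The summed level of the cluster was 133, 130 and 126 CPM with the loaded device, 105, 105 and 102 CPM with the empty device and 94.6, 98.8 and 103 CPM in untreated lesions. The loaded libraries stood above the rest, and the empty and untreated libraries overlapped.

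Hoxb2, Hoxb3 and Hoxb4 rose with the loaded device over both other groups and did not pass the test for empty over untreated. With the fibroblast scaling these genes were called there too, at 0.24, 0.21 and 0.20, where the median of all tested genes is 0.144. Hoxb3 (chromosome 11, 96214152 to 96238756, plus strand, mm39) takes part in forming the hindbrain and the organs of the throat. Its levels were 31.0, 30.1 and 28.2 CPM with the loaded device, 23.0, 20.9 and 21.2 CPM with the empty device and 19.7, 21.2 and 21.9 CPM in untreated lesions. The loaded libraries were all above the others, and the empty and untreated libraries overlapped. The log2 fold change of Hoxb3 was 0.51 for loaded over untreated (SE 0.0480, edgeR adjusted p = 1.35e-09), 0.46 for loaded over empty (SE 0.0474, edgeR adjusted p = 5.13e-09) and 0.05 for empty over untreated (SE 0.0487, edgeR adjusted p = 0.427).

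Hoxb4, known for its part in blood stem cells and in the neck vertebrae, moved in the same way. It had 12.8, 12.6 and 12.9 CPM with the loaded device, 9.53, 9.92 and 8.90 CPM with the empty device and 8.84, 9.46 and 9.32 CPM in untreated lesions. The loaded libraries again stood apart, at a log2 fold change of 0.47 over untreated (edgeR adjusted p = 8.13e-08) and 0.43 over empty (edgeR adjusted p = 1.99e-07). Hoxb2, which acts in the hindbrain segments, had 13.9, 15.3 and 14.2 CPM with the loaded device, 12.1, 12 and 11.1 CPM with the empty device and 11.5, 11.1 and 10.6 CPM in untreated lesions. Its log2 fold change was 0.39 over untreated (edgeR adjusted p = 1.71e-06) and 0.30 over empty (edgeR adjusted p = 3.87e-05). Hoxb1, the most anterior gene, had 20 to 43 counts per library and passed the test in no comparison.

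Hoxb5, Hoxb6, Hoxb8 and Hoxb9 rose with both devices over untreated lesions, and Hoxb6 and Hoxb8 also for loaded over empty. Hoxb6, a gene of the trunk, had the highest CPM per kb of span in the cluster in the loaded and empty groups. It had 45.0, 41.3 and 40.9 CPM with the loaded device, 36.8, 35.8 and 35.8 CPM with the empty device and 29.9, 32.3 and 35.4 CPM in untreated lesions. Its log2 fold change was 0.38 for loaded over untreated (edgeR adjusted p = 3.45e-06), 0.15 for empty over untreated (edgeR adjusted p = 0.0186) and 0.23 for loaded over empty (edgeR adjusted p = 7.23e-04). The 3 groups did not overlap for Hoxb6, but the call for the empty device was lost when empty replicate 1, empty replicate 2, untreated replicate 1 or untreated replicate 2 was left out.

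Hoxb8, which in mice is also known for its part in microglia and grooming, had 7.83, 8.10 and 8.34 CPM with the loaded device, 6.27, 6.81 and 6.16 CPM with the empty device and 5.29, 5.59 and 5.91 CPM in untreated lesions. The groups did not overlap. The log2 fold change of Hoxb8 was 0.53 for loaded over untreated (edgeR adjusted p = 2.69e-07), 0.20 for empty over untreated (edgeR adjusted p = 0.0211) and 0.34 for loaded over empty (edgeR adjusted p = 1.26e-04). Hoxb5, which takes part in placing the forelimb and in gut nerves, had 3.92, 3.99 and 3.70 CPM with the loaded device, 3.29, 3.18 and 3.73 CPM with the empty device and 2.90, 2.94 and 2.81 CPM in untreated lesions. Both treated groups lay above untreated lesions for Hoxb5 and overlapped each other, with log2 fold changes of 0.42 (edgeR adjusted p = 3.09e-04) for loaded over untreated and 0.24 (edgeR adjusted p = 0.0307) for empty over untreated. The empty-device call was lost when untreated replicate 2 was left out for Hoxb5 and for Hoxb8, when untreated replicate 1 was left out for both, when empty replicate 3 or untreated replicate 3 was left out for Hoxb5 and when empty replicate 2 was left out for Hoxb8.

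Hoxb9, a gene of the thorax, had 3.41, 3.41 and 3.40 CPM with the loaded device, 2.83, 3.35 and 2.96 CPM with the empty device and 1.97, 2.31 and 2.49 CPM in untreated lesions. Its log2 fold change was 0.59 for loaded over untreated (edgeR adjusted p = 2.32e-05) and 0.43 for empty over untreated (edgeR adjusted p = 8.84e-04). Loaded over empty gave 0.16 (SE 0.0967, edgeR adjusted p = 0.196) for Hoxb9, which did not pass the test. Hoxb7, a gene of the trunk, was lowest with the empty device. It had 14.2, 14.3 and 13.7 CPM with the loaded device, 10.4, 12.1 and 11.3 CPM with the empty device and 14.1, 13.2 and 14.4 CPM in untreated lesions. The loaded and untreated libraries overlapped. Hoxb7 fell by 0.30 on the log2 scale for empty over untreated (SE 0.0564, edgeR adjusted p = 5.58e-05) and rose by 0.31 for loaded over empty (SE 0.0561, edgeR adjusted p = 3.23e-05).

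The antisense rows of the Hoxb cluster were highest with the loaded device as well. Hoxb5os, an antisense RNA that overlaps Hoxb5 and Hoxb6 on the other strand, had 5.55, 5.13 and 4.93 CPM with the loaded device, 2.99, 2.71 and 2.77 CPM with the empty device and 3.54, 3.21 and 3.49 CPM in untreated lesions. The groups did not overlap, and Hoxb5os was lowest with the empty device. Its log2 fold change was 0.61 for loaded over untreated (edgeR adjusted p = 8.43e-07), -0.27 for empty over untreated (edgeR adjusted p = 0.0125) and 0.88 for loaded over empty (edgeR adjusted p = 1.02e-09). Hoxb3os, antisense at Hoxb3, rose by 0.34 for loaded over untreated (edgeR adjusted p = 6.23e-05) and by 0.29 for loaded over empty (edgeR adjusted p = 3.13e-04). The span of Hoxb3os covers all of Hoxb2 on the other strand. A small share of reads of the Hoxb genes on the wrong strand cannot be told apart from reads of these antisense rows. Of the 16 noncoding Hox rows in the table, 9 were tested. For loaded over untreated 4 of the 9 were higher and 0 lower, against 19.0% and 23.3% of all tested genes. For empty over untreated 3 were higher and 1 lower, against 20.2% and 28.1%. For loaded over empty 3 were higher and 2 lower, against 22.9% and 18.5%. The median log2 fold changes of the 9 rows were 0.34, 0.07 and 0.19 in these comparisons. The long noncoding RNAs Hotair and Hottip, which lie at the posterior ends of Hoxc and Hoxa, had summed counts of 19 and 15 with the loaded device, 25 and 12 with the empty device and 7 and 14 in untreated lesions, too few for a test.

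The Hoxb cluster also holds 2 microRNA genes with counts, and for loaded over empty they moved in opposite ways. MicroRNAs of the miR-10 and miR-196 families lie in Hox clusters and bind Hox transcripts. The mature sequences are shown because their seeds, bases 2 to 8 in capitals, group them into families, and because the miR-196a site in Hoxb8 follows from them. They are RefSeq sequences of GRCm38.p6, written 5′ to 3′.
mmu-miR-196a-5p: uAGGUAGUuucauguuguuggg
mmu-miR-196b-5p: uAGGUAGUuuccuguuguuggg
mmu-miR-10a-5p: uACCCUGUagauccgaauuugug
mmu-miR-10b-5p: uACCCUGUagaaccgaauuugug
The miR-196 pair share the seed AGGUAGU, and the miR-10 pair share ACCCUGU.

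In the count table the Mir196a-1 row, between Hoxb13 and Hoxb9, had 14, 22 and 21 counts with loaded microneedles, 42, 41 and 47 with the empty device and 16, 17 and 21 in untreated lesions. The empty-device libraries stood above the others, which overlapped. Its log2 fold change was 1.09 for empty over untreated (SE 0.267, edgeR adjusted p = 1.11e-03), -1.12 for loaded over empty (SE 0.264, edgeR adjusted p = 8.82e-04) and -0.03 for loaded over untreated (SE 0.300, edgeR adjusted p = 0.943). The row Gm53, which ends just before Mir196a-1 on the same strand, had 5.57, 4.83 and 4.71 CPM with the loaded device, 5.70, 6.63 and 6.35 CPM with the empty device and 3.38, 3.54 and 3.78 CPM in untreated lesions. Gm53 rose with both devices, by 0.50 (edgeR adjusted p = 2.35e-05) with the loaded and 0.80 (edgeR adjusted p = 3.54e-09) with the empty one. Gm53 was chosen after its values were seen, as a neighbour of Mir196a-1.

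Mir10a, just upstream of Hoxb4, had 41, 66 and 42 counts with loaded microneedles, 27, 25 and 30 with the empty device and 23, 37 and 38 in untreated lesions. The loaded libraries lay above the others, which overlapped. Mir10a rose by 0.92 for loaded over empty (SE 0.253, edgeR adjusted p = 3.87e-03), and the 2 comparisons with untreated lesions did not pass the test. The libraries were made from polyadenylated RNA, so these counts are reads of longer transcripts across the hairpin and not amounts of the mature microRNA. Mir10b, Mir196a-2, Mir196b and Mir615 had 0 counts. Their overlap with longer rows of the same strand was not examined, so these zeros do not show a lack of transcription.

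The pairing of miR-196 with the Hoxb8 transcript, long known in mice, links that row to a gene of the set. Bases 2208 to 2229 of the 2635 bases of the GENCODE transcript Hoxb8-201 (GRCm38), past the last coding base at 1787, read as follows, with the bases that face the seed in capitals.
Hoxb8 site: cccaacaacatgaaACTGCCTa
All 22 bases can pair with miR-196a-5p, 21 as standard pairs and 1 as a G:U pair, with 0 mismatches. The G:U pair lies within the bases in capitals. Hoxb8 and the Mir196a-1 row were both higher with the empty device than in untreated lesions, whereas for loaded over empty Hoxb8 was higher and the Mir196a-1 row lower. Any effect of the microRNA on Hoxb8 was not tested.

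The Hoxa cluster on chromosome 6 was highest with the empty device. Of its 5 tested genes, 3 were higher for empty over untreated, 2 were higher for loaded over untreated and 3 were lower for loaded over empty, with none in the opposite direction in each. The median log2 fold changes were 0.41, 0.09 and -0.27 in these comparisons. The summed level was 53.2, 53.0 and 55.0 CPM with the loaded device, 65.1, 67.2 and 67.1 CPM with the empty device and 45.8, 48.6 and 46.9 CPM in untreated lesions, and the groups did not overlap. Most of each sum came from Hoxa7, which averaged 45.6, 55.1 and 39.8 CPM in the same order of groups. For loaded over empty, 2 of the 3 calls depend on the scaling. Scaled to a list of dermal fibroblast genes, which moves the median of all tested genes to 0.308, Hoxa7 had a log2 fold change of 0.02 and Hoxa10 of -0.03, both below that median, and Hoxa9 had -0.32 and kept its call.

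Hoxa9, a gene of the trunk and upper limb that is also known from leukaemia, had the largest change of the Hox genes above 1 CPM. It lies on chromosome 6 from 52200080 to 52208069 on the minus strand (mm39). Its levels were 4.70, 4.99 and 4.79 CPM with the loaded device, 7.11, 7.26 and 7.83 CPM with the empty device and 3.79, 4.18 and 3.40 CPM in untreated lesions. The 3 groups did not overlap. Hoxa9 had a log2 fold change of 0.97 for empty over untreated (SE 0.0784, edgeR adjusted p = 2.60e-11), 0.35 for loaded over untreated (SE 0.0820, edgeR adjusted p = 9.05e-04) and -0.62 for loaded over empty (SE 0.0753, edgeR adjusted p = 8.61e-08).

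Hoxa7, a trunk gene, had the highest CPM per kb of span of the 17 Hox genes compared. Its levels were 45.2, 44.9 and 46.8 CPM with the loaded device, 53.8, 56.0 and 55.6 CPM with the empty device and 38.3, 41.0 and 40.2 CPM in untreated lesions. These groups did not overlap either. The log2 fold change of Hoxa7 was 0.47 for empty over untreated (edgeR adjusted p = 5.85e-12), 0.20 for loaded over untreated (edgeR adjusted p = 4.70e-05) and -0.27 for loaded over empty (edgeR adjusted p = 1.94e-07). Hoxa10, with the levels given above, was 0.41 higher for empty over untreated (edgeR adjusted p = 8.85e-03). It fell by 0.32 on the log2 scale for loaded over empty (edgeR adjusted p = 0.0408), a call lost with library size alone as the scale, without a filter on low counts, in the DESeq2 Wald test and without loaded replicate 1, loaded replicate 3, empty replicate 1, empty replicate 2 or untreated replicate 3.

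Hoxa2, a gene of the second pharyngeal arch, had 63 to 112 counts per library and passed the test in no comparison. Hotairm1, a noncoding RNA of the Hoxa cluster, followed the posterior genes, with 0.46 for empty over untreated (edgeR adjusted p = 1.42e-06) and -0.36 for loaded over empty (edgeR adjusted p = 4.88e-05).

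Promoter sequences are shown for 1 gene of each pattern, Hoxa9 from the genes highest with the empty device and Hoxb4 from those highest with the loaded device. Each runs from 250 bases before to 50 bases after the start of the RefSeq gene, on the gene's strand, at chr6:52227321-52227620 (minus strand) and chr11:96318017-96318316 (plus strand) of GRCm38.p6. RefSeq promoters were at hand for 24 of the 43 members. The windows follow RefSeq starts on GRCm38.p6, whereas the counted rows are spans on mm39. Whether a window lies at the start of its counted row or within it was not examined. Capitals mark matches to 5 motifs searched on both strands: TATAAA, the TATA box; CCAAT, the CCAAT box; GGGCGG, the core of the Sp1 binding site; TGATNNAT, the motif bound by Pbx with Hox proteins; and TTAATT, a homeodomain core.
Hoxa9: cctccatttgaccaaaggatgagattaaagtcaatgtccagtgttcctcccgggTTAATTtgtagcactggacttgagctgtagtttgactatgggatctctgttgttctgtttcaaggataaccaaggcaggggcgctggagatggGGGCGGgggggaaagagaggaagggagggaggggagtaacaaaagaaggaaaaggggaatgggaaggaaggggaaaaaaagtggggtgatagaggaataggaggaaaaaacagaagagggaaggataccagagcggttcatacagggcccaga
Hoxb4: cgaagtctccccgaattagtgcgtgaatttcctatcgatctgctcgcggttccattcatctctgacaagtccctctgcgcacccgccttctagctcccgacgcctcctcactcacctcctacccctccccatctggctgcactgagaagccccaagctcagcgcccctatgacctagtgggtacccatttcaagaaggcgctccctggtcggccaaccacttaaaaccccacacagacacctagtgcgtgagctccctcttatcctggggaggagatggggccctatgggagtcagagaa
The Hoxa9 window holds 1 TTAATT, from base 55, and 1 GGGCGG, from base 148, and the Hoxb4 window holds none of the 5. GGGCGG occurs in 35.7% of the 32851 mouse promoters of this length, and TTAATT in 11.3%. The other shares are 13.6% for TATAAA, 37.4% for CCAAT and 8.85% for TGATNNAT. A match is a description of the letters only.

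Some Hoxc and Hoxd genes were higher with the devices. Of 4 tested genes in each cluster, 2 Hoxc and 2 Hoxd genes were higher for loaded over untreated, and 2 and 2 for empty over untreated, with none lower. Hoxd10, with a log2 fold change of -0.01 for loaded over untreated and -0.11 for empty over untreated, passed neither test. Summed levels were 19.3, 19.5 and 19.4 CPM for Hoxc and 16.0, 14.8 and 16.0 CPM for Hoxd with the loaded device. With the empty device they were 20.6, 21.3 and 21.5 CPM for Hoxc and 14.4, 15.1 and 16.9 CPM for Hoxd. In untreated lesions they were 17.0, 18.6 and 17.5 CPM for Hoxc and 11.9, 11.5 and 12 CPM for Hoxd, below every treated library. The loaded and empty libraries overlapped for Hoxd and not for Hoxc. Hoxc4 and Hoxc5 together supplied most of each Hoxc sum, and Hoxd8 most of each Hoxd sum.

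Hoxd8, a trunk gene, had 12.8, 11.6 and 12.9 CPM with the loaded device, 10.6, 11.1 and 12.2 CPM with the empty device and 8.96, 8.46 and 9.22 CPM in untreated lesions. Both treated groups lay above untreated lesions and overlapped each other. The log2 fold change of Hoxd8 was 0.49 for loaded over untreated (edgeR adjusted p = 2.32e-07), 0.35 for empty over untreated (edgeR adjusted p = 2.51e-05) and 0.14 for loaded over empty (edgeR adjusted p = 0.0707). Hoxd9, its neighbour, which acts in the lower trunk and upper limb, had 2.59, 2.55 and 2.52 CPM with the loaded device, 3.32, 3.47 and 4.10 CPM with the empty device and 2.35, 2.55 and 2.30 CPM in untreated lesions. The empty-device libraries stood above the others for Hoxd9, at 0.60 over untreated (edgeR adjusted p = 8.83e-06), and loaded over empty gave -0.50 (edgeR adjusted p = 8.58e-05). The call for loaded over empty was lost with the fibroblast scaling, at -0.21 (edgeR adjusted p = 0.0634), and loaded over untreated gave 0.09 (edgeR adjusted p = 0.522) without it. The antisense RNA Hoxd3os1, whose span crosses Hoxd8, rose by 0.67 with the loaded device (edgeR adjusted p = 1.21e-05) and by 0.47 with the empty device (edgeR adjusted p = 6.99e-04), both over untreated lesions. Reads of Hoxd8 on the wrong strand cannot be told apart from reads of Hoxd3os1. Hoxd3, read from 1.4% of its span, had 29, 24 and 30 counts with loaded microneedles, 22, 16 and 24 with the empty device and 11, 11 and 21 in untreated lesions. Its call for loaded over untreated, 0.83 (edgeR adjusted p = 0.0408), was lost without a filter on low counts, in the DESeq2 Wald test and without loaded replicate 1, loaded replicate 3, untreated replicate 1 or untreated replicate 2.

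Hoxc4, the most anterior Hoxc gene, had 8.36, 8.37 and 8.47 CPM with the loaded device, 9.52, 9.53 and 10.2 CPM with the empty device and 7.04, 8.0 and 7.4 CPM in untreated lesions. The groups did not overlap, and the empty-device libraries were highest. Hoxc4 had a log2 fold change of 0.38 for empty over untreated (edgeR adjusted p = 6.74e-06) and -0.21 for loaded over empty (edgeR adjusted p = 4.84e-03). With the fibroblast scaling loaded over empty turned to 0.08 (edgeR adjusted p = 0.33), below that scaling's median of 0.308 over all tested genes. Loaded over untreated gave 0.17 (edgeR adjusted p = 0.0333), and this call was lost when any loaded replicate, untreated replicate 1 or untreated replicate 3 was left out. The Hoxc5 row had 9.94, 10.4 and 10.2 CPM with the loaded device, 10.3, 10.8 and 10.5 CPM with the empty device and 9.15, 10 and 9.50 CPM in untreated lesions. It rose by 0.15 for empty over untreated (edgeR adjusted p = 0.0340), a call lost without empty replicate 2, untreated replicate 1 or untreated replicate 3. Hoxc10 had 19 to 49 counts per library and passed the test in no comparison.

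The called genes were also counted by paralogue number, without a test of the difference between the devices. Over all tested genes 19.0% were higher for loaded over untreated, 20.2% for empty over untreated and 22.9% for loaded over empty. The shares lower were 23.3%, 28.1% and 18.5% in the same comparisons. Among the 8 tested genes with numbers 1 to 4, 5 were higher with the loaded device and 1 with the empty device over untreated lesions, with median log2 fold changes of 0.28 and 0.07. Among the 7 with numbers 5 to 8, 5 were higher with the loaded device, and 6 were higher and 1 lower with the empty device, with medians of 0.38 and 0.20. Among the 8 with numbers 9 to 13, 3 were higher with the loaded device and 4 with the empty device, with medians of 0.13 and 0.48. For loaded over empty the medians were 0.37 for numbers 1 to 4, 0.18 for 5 to 8 and -0.36 for 9 to 13, with 3, 3 and 1 genes higher and 1, 1 and 3 lower. Hoxb supplies 4 of the 8 low-numbered genes, so cluster and number cannot be told apart in these counts.

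Pitx1, the homeobox gene that gives the hindlimb its identity, differed most between the groups of all 28 tested members. It lies on chromosome 13 from 55972864 to 55984005 on the minus strand (mm39). Its counts were 100, 119 and 106 with the loaded device, 489, 511 and 463 with the empty device and 232, 290 and 235 in untreated lesions. That is 1.12, 1.30 and 1.13 CPM with the loaded device, 5.28, 5.23 and 4.80 CPM with the empty device and 2.82, 3.41 and 2.71 CPM in untreated lesions. The groups were far apart, with untreated lesions between the devices.

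The level of Pitx1 was 2.52-fold lower for loaded over untreated, a log2 fold change of -1.33 (SE 0.115, edgeR adjusted p = 1.97e-10). With the empty device it was 1.71-fold higher than in untreated lesions, a log2 fold change of 0.78 (SE 0.0947, edgeR adjusted p = 6.50e-08). Loaded over empty gave -2.11 (SE 0.107, edgeR adjusted p = 3.42e-15), a level 4.31-fold lower with the loaded device. Gm47071, a long predicted RNA on the opposite strand whose span covers most of Pitx1, moved in the same directions, at -0.70, 0.21 and -0.91 for loaded over untreated, empty over untreated and loaded over empty (edgeR adjusted p = 5.30e-12, 5.36e-04 and 1.33e-14). Because reads were counted by strand, the 2 rows are separate counts, but a small share of reads on the wrong strand cannot be told apart from either.

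Tbx4, the partner of Pitx1 in the hindlimb, had 0.816, 1.01 and 0.692 CPM with the loaded device, 1.12, 1.16 and 1.07 CPM with the empty device and 0.948, 0.870 and 0.912 CPM in untreated lesions. The empty-device libraries lay above the rest, and the loaded and untreated libraries overlapped. Tbx4 was lower for loaded over empty, at -0.41 (SE 0.158, edgeR adjusted p = 0.0369), a call lost with library size alone as the scale, with the fibroblast scaling (at -0.12), without a filter on low counts, in the DESeq2 Wald test and without loaded replicate 1, loaded replicate 3, empty replicate 1 or empty replicate 2. Tbx5, the forelimb gene, had 14 to 25 counts per library in every group, and its log2 fold changes were 0.07 for loaded over untreated, 0.03 for empty over untreated and 0.04 for loaded over empty, with SE of 0.330 to 0.338. Differences of this size were not detectable at this depth.

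Tbx15, a T-box gene of dorsal skin that sets the border of coat colour in mice, followed the order of Pitx1 in CPM. It had 27.9, 28 and 30 CPM with the loaded device, 36.3, 37.8 and 41.4 CPM with the empty device and 30.3, 32.5 and 32.7 CPM in untreated lesions. The groups did not overlap. Tbx15 had a log2 fold change of 0.27 for empty over untreated (edgeR adjusted p = 1.65e-05), -0.43 for loaded over empty (edgeR adjusted p = 2.31e-08) and -0.15 for loaded over untreated (edgeR adjusted p = 9.13e-03). The last call was lost with library size alone as the scale, at -0.02, and without loaded replicate 1. With the fibroblast scaling it turned to 0.30 (edgeR adjusted p = 8.63e-09), below that scaling's median of 0.438 over all tested genes. Per kb of span free of same-strand rows, Tbx15 had 0.251 CPM (loaded), 0.338 (empty) and 0.279 (untreated). Pitx1 had 0.113, 0.490 and 0.286 CPM per kb in the same order of groups. The spans, introns included, are 113.88 kb for Tbx15 and 11.14 kb for Pitx1, so these values do not compare the abundance of the genes. En1, the ventral gene of the limb, had 1.12, 1.04 and 1.16 CPM with the loaded device, 1.08, 1.2 and 1.44 CPM with the empty device and 1.17, 1.19 and 0.831 CPM in untreated lesions. The groups overlapped for En1, and no comparison passed the test.

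**Figure D4:**
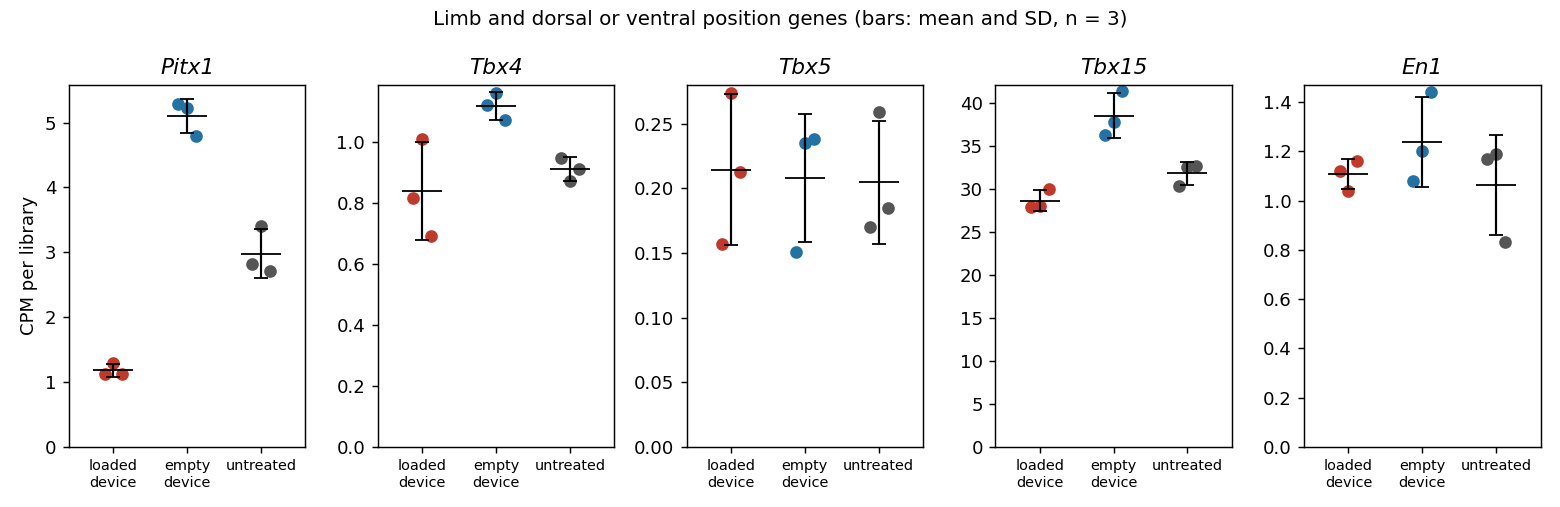
CPM per library (y axis, starting at 0, with a scale of its own in each panel) of Pitx1, Tbx4, Tbx5, Tbx15 and En1 with the loaded device, the empty device and untreated, with the mean and SD of 3 libraries. Pitx1 and Tbx15 are lowest with the loaded device and highest with the empty device without overlap, while the groups overlap for Tbx5 and En1. For Tbx15 the fibroblast scaling turns loaded over untreated to 0.30.

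Among the partners and regulators of the Hox genes, calls went in both directions. Of 9 genes of the Pbx, Meis and Pknox families, whose proteins bind DNA together with Hox proteins, 3 were higher and 2 lower for loaded over untreated, 3 higher and 1 lower for empty over untreated, and 1 higher and 3 lower for loaded over empty. Over all tested genes 19.0% were higher and 23.3% lower for loaded over untreated, 20.2% and 28.1% for empty over untreated, and 22.9% and 18.5% for loaded over empty, and the counts of these lists and of those that follow are read against these shares. Pbx2 averaged 45.6 CPM with the loaded device, 34.9 CPM with the empty device and 35.6 CPM in untreated lesions, with 0.36 for loaded over untreated (edgeR adjusted p = 1.48e-09). Pbx4 averaged 2.6 CPM with the loaded device, 3.59 CPM with the empty device and 2.37 CPM in untreated lesions, with 0.60 for empty over untreated (edgeR adjusted p = 7.90e-06). Of 20 genes of the Polycomb and trithorax groups, which keep Hox genes silent or active, 15 were higher and 2 lower for loaded over untreated, 10 higher and 5 lower for empty over untreated, and 12 higher and 4 lower for loaded over empty. The median log2 fold changes of these chromatin genes were 0.20, 0.12 and 0.10.

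Among the named chromatin genes the order of the groups differed. Ezh2, the methyltransferase of the Polycomb repressive complex, averaged 43.1 CPM with the loaded device, 32.5 CPM with the empty device and 38.0 CPM in untreated lesions, at 0.18, -0.22 and 0.40 for loaded over untreated, empty over untreated and loaded over empty (edgeR adjusted p = 1.23e-04, 7.09e-06 and 2.08e-10). Cbx7, a reader of its mark, averaged 35.4 CPM with the loaded device, 47.1 CPM with the empty device and 30 CPM in untreated lesions, at 0.24, 0.65 and -0.41 in these comparisons (edgeR adjusted p = 4.29e-06, 1.15e-14 and 1.11e-10). Of 19 genes of retinoic acid synthesis, breakdown and signalling, which sets Hox expression in the embryo, 8 were higher and 6 lower for loaded over untreated, 8 and 8 for empty over untreated, and 5 and 7 for loaded over empty, beside 22.9% and 18.5% of all tested genes in the last comparison. Cyp26b1, an enzyme that breaks down retinoic acid, averaged 43.8 CPM with the loaded device, 50.6 CPM with the empty device and 33.5 CPM in untreated lesions, with 0.39 (edgeR adjusted p = 8.28e-10) and 0.60 (edgeR adjusted p = 6.28e-14) over untreated.

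Other patterning genes were split as well. Of 24 further limb and dorsal or ventral patterning genes, 8 were higher and 2 lower for loaded over untreated, 8 and 5 for empty over untreated, and 7 and 6 for loaded over empty. Irx3, an Iroquois gene of limb and skin patterning, averaged 31.2 CPM with the loaded device, 57.1 CPM with the empty device and 36.4 CPM in untreated lesions, the order seen for Pitx1, with -0.87 for loaded over empty (edgeR adjusted p = 6.38e-17). Msx2, which acts in limb buds and in the hair follicle, had the opposite order, with 110 CPM with the loaded device, 63.6 CPM with the empty device and 82.1 CPM in untreated lesions, and 0.79 for loaded over empty (edgeR adjusted p = 8.42e-16). Of 12 tested genes of 15 that mark the mesenchyme of the face, 6 were higher and 0 lower for loaded over untreated, 3 and 2 for empty over untreated, and 2 and 2 for loaded over empty. Over all tested genes the shares were 20.2% and 28.1% for empty over untreated and 22.9% and 18.5% for loaded over empty. Their summed level was 36.2 to 37.6 CPM with the loaded device, 31.0 to 31.5 CPM with the empty device and 29.5 to 31.7 CPM in untreated lesions.

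Marker lists of the tissues in a skin sample moved with the same groups. The skeletal muscle list of 22 genes summed to 9830 to 10400 CPM with the loaded device, 13800 to 16300 CPM with the empty device and 10800 to 11100 CPM in untreated lesions, with 18 genes higher and 1 lower for empty over untreated. The keratinocyte list of 15 genes summed to 36900 to 39400 CPM with the loaded device, 58800 to 60100 CPM with the empty device and 49500 to 50700 CPM in untreated lesions. For empty over untreated its genes went both ways, with 8 higher, 5 lower and a median log2 fold change of 0.12. Krt10 and Krt1, keratins of the outer layers, averaged 22100 and 12600 CPM with the empty device and 15700 and 9400 CPM in untreated lesions, while Krt14, a keratin of the basal layer, fell by 0.83 on the log2 scale (edgeR adjusted p = 4.39e-15). The summed levels of both lists were highest with the empty device, as were Pitx1, Tbx15, Hoxa7 and Hoxa9, and for Pitx1, Tbx15 and both sums the CPM was lowest with the loaded device.

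The hair follicle mesenchyme list of 20 genes summed to 333 to 345 CPM with the loaded device, 216 to 219 CPM with the empty device and 296 to 305 CPM in untreated lesions, with 17 of 19 tested genes higher for loaded over empty. Its gene Sox2 is at 0 and, like the Hox genes at 0, lies within a row of its own strand. The hair matrix list of 17 genes summed to 2490 to 2600 CPM with the loaded device, 1810 to 1930 CPM with the empty device and 2240 to 2280 CPM in untreated lesions. The summed Hoxb level was highest with the loaded device too. For empty over untreated, 4 of 10 Hoxb genes were higher and 1 lower, 0 of 19 follicle mesenchyme genes were higher and 12 lower, and 2 of 17 hair matrix genes were higher and 12 lower. The dermal fibroblast list of 21 genes, the cells known to keep a Hox pattern, summed to 1870 to 1910 CPM with the loaded device, 2240 to 2380 CPM with the empty device and 2550 to 2620 CPM in untreated lesions. It was lowest with the loaded device, where 18 of its genes were lower and 0 higher than in untreated lesions, while 13 of 23 tested Hox genes were higher and 0 lower. The part of each tissue in the levels of the position genes was not tested.

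**Figure D5:**
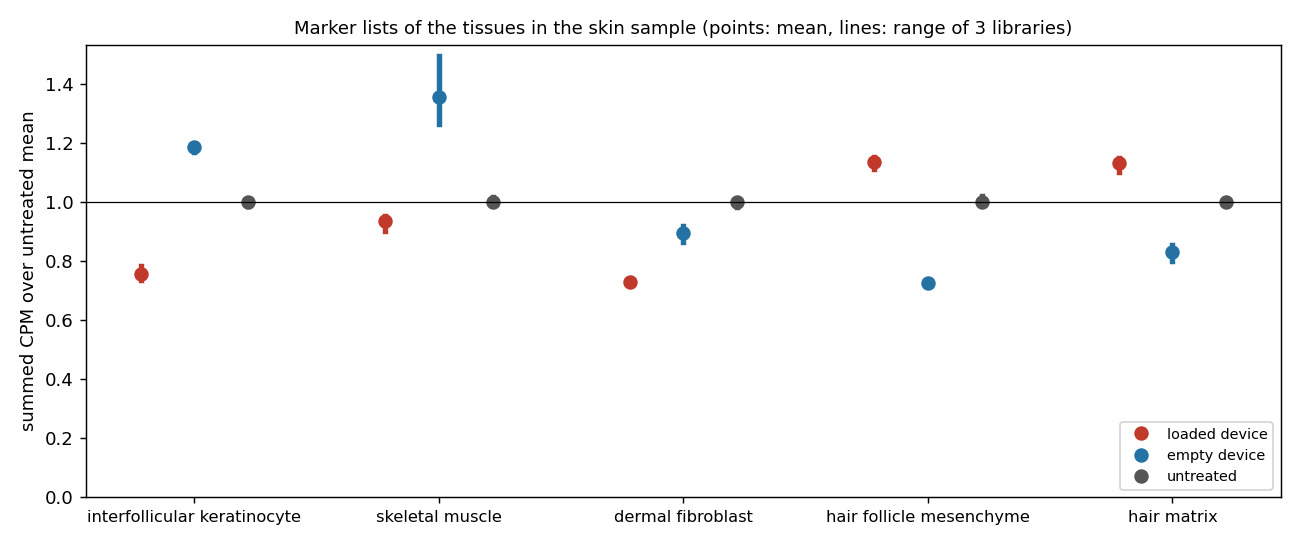
Summed CPM of 5 marker lists divided by the untreated mean (y axis, starting at 0) with the loaded device, the empty device and untreated, with points for the mean and lines for the range of 3 libraries. Summed keratinocyte and muscle levels are highest with the empty device, those of hair follicle mesenchyme and hair matrix with the loaded device, and those of dermal fibroblasts in untreated lesions.

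The melanocyte and adipocyte lists also split between the devices. All 8 melanocyte genes were lower for empty over untreated and higher for loaded over empty, with median log2 fold changes of -1.05 and 1.02. Of 15 adipocyte genes, 3 were higher and 11 lower for empty over untreated, with a median of -0.71, and 12 higher and 2 lower for loaded over empty, with a median of 0.62. Adipoq, a hormone of fat cells, averaged 32.9 CPM with the loaded device, 10.3 CPM with the empty device and 22.6 CPM in untreated lesions. Summed levels were 2260 to 2380 CPM with the loaded device, 2050 to 2340 CPM with the empty device and 2150 to 2230 CPM in untreated lesions for the adipocyte genes, so the sums overlapped. They were 574 to 629, 292 to 324 and 555 to 579 CPM for the melanocyte genes, 152 to 161, 187 to 190 and 200 to 207 CPM for 13 leukocyte genes, and 133 to 137, 135 to 151 and 126 to 132 CPM for 10 endothelial genes in the same order of groups. For 9 Schwann cell genes they were 103 to 109, 127 to 142 and 121 to 123 CPM, for 10 mammary epithelium genes 104 to 109, 74.3 to 80.1 and 97.7 to 101 CPM, and for 10 sweat gland genes 107 to 110, 147 to 156 and 123 to 129 CPM. The last 2 lists are named for glands, and they share Krt8 and Krt18 with each other. Most of each sum came from 1 gene, given here as means in the same order of groups. Elf5 had 66.1, 45.1 and 57.5 CPM in the mammary list, and Slc12a2 had 89.8, 129 and 100 CPM in the sweat gland list. Of the 10 genes in each list, 7 and 6 were tested. The sums are therefore not read as a difference in skin site.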

How the data were processed

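The labels' protocols name the Qiagen miRNeasy kit for extraction and IDT's xGen Broad-Range kit for library preparation, and give the molecule as polyA RNA. HISAT2, featureCounts and the mouse build mm39 are named in the submitters' processing notes; their versions and settings are not given. What the authors deposited is a single table of raw counts, with a column for each library, per the file headers. A row's length equalled its whole span for 99.9% of genes.

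Counts were filtered with filterByExpr (minimum count 10, minimum total 15), which kept 26081 genes. They were scaled by TMM, and a robust quasi-likelihood model with a coefficient for each group was fitted to all 9 libraries (edgeR 4.0.16, R 4.3.3). Its common biological coefficient of variation was 0.039. Benjamini-Hochberg adjusted p-values run over all tested genes and are called under 0.05. SE values come from the F statistic. Detection needed 10 counts in every library of a group. The steps were run on simulated counts in which genes were changed in the loaded group only. That run does not bear on the choice of scale for these data. Python 3.11.15 with pandas 2.3.3 read spans and sequences.

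The members and all gene lists were chosen with earlier results of these data known. Described members are those called in any comparison whose mean reaches 1 CPM, and the last detected and first undetected paralogue of each cluster. Of each other list the text takes examples from up to 3 called genes per comparison with the smallest p. Called members under 1 CPM are named as well. A result for an item that is not reported here stays in the counts and sums over members. Alternatives were other scalings (DESeq2 size factors, library size alone, upper quartile, a dermal fibroblast list), no filter, a filter at a mean of 1 CPM, the DESeq2 1.42.0 Wald test, limma-voom (limma 3.58.1), a fit of each pair of groups alone, a replicate block, a 1.5-fold minimum, other detection minimums and leaving out each library.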

Additional observations from a re-analysis of the deposited data

How the results depend on the processing

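Across 18 alternatives other than the fibroblast scaling and the 1.5-fold minimum, the calls of Pitx1, Hoxa7 and Hoxa9 held in all 3 comparisons, those of Hoxb2, Hoxb3, Hoxb4, Hoxb6 and Hoxb8 in both comparisons with the loaded device, and that of Hoxd9 in both comparisons with the empty device. Scaled to the dermal fibroblast list, 20 members were higher and 1 lower for loaded over untreated, 20 higher for empty over untreated, and 13 higher and 3 lower for loaded over empty. With library size alone, which moves the median of all tested genes to 0.118 for loaded over untreated, 1 member was lower there. Against a 1.5-fold minimum, 0 members were higher and 1 lower for loaded over untreated, 1 higher and 0 lower for empty over untreated, and 0 higher and 1 lower for loaded over empty. Leaving out 1 library gave 11 to 13 higher and 2 to 3 lower for loaded over untreated, 9 to 14 and 1 to 2 for empty over untreated, and 6 to 8 and 6 to 8 for loaded over empty. The second lower member for empty over untreated was Hoxb1, without empty replicate 2. Deviations of same-numbered libraries from their group means correlated at 0.0516 to 0.104 between loaded and empty. Different-numbered loaded and empty libraries gave -0.0819 to -0.00389. Same-numbered pairs gave -0.134 to -0.0219 between loaded and untreated and -0.0506 to 0.0382 between empty and untreated. These values do not settle whether the numbers pair the libraries. With a replicate block the counts were 13 and 3, 13 and 1, and 7 and 8.

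The highest paralogue with at least 3 counts in every library was 13 for Hoxa and 13 for Hoxb in untreated lesions. With at least 30 counts it was 9 for Hoxb with either device, 10 for Hoxc with the empty device, 5 for Hoxc in untreated lesions and 9 for Hoxd in all 3 groups. The set near the posterior end is limited by depth.

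The fibroblast scaling turned the sign of called values, to 0.30 for Tbx15 for loaded over untreated. For loaded over empty it gave 0.02 for Hoxa7 and 0.08 for Hoxc4. In the other settings, signs turned for genes that were not called. For loaded over untreated, library size alone gave 0.11 for Hoxb1, 0.02 for Hoxc10, 0.13 for Hoxd10 and 0.02 for Tbx4. Hoxd10 was 0.01 with DESeq2 size factors, 0.01 in the DESeq2 Wald test and 0.03 with the replicate block. Leaving out 1 library gave -0.07 to 0.10 for Hoxa2, -0.23 to 0.11 for Hoxb1, -0.02 to 0.04 for Hoxb7, -0.08 to 0.36 for Hoxb13, -0.38 to 0.07 for Hoxc10, -0.24 to 0.58 for Hoxd10, -0.09 to 0.15 for En1, -0.27 to 0.01 for Tbx4 and -0.14 to 0.27 for Tbx5. For empty over untreated it gave -0.00 to 0.12 for Hoxb4, -0.35 to 0.47 for Hoxd10 and -0.09 to 0.23 for Tbx5, and for loaded over empty -0.04 to 0.32 for Hoxd10 and -0.17 to 0.22 for Tbx5. The cause of these turns was not tested.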
